A study of Mus musculus with 72 samples.

Results

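The retinoic acid step of a neuroectodermal differentiation was compared between mouse embryonic stem cells with and without functional Nup133, a subunit of the Y-complex that builds the scaffold of the nuclear pore. The comparison took the 12 biological samples of day 2 and day 3, which hold 48 of the 72 sequenced libraries and 12 of the 18 biological samples of the series. For every gene it set the change from day 2 to day 3 in 3 knockout series against the same change in 3 control series, a quantity called the interaction here (knockout change minus control change, on the log2 scale). An interaction above 0 means a larger rise, or a smaller fall, in the knockout.

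The controls were the line HM1 (Nup133+/+, 40 Chr, XY), followed as biological replicate 1 and biological replicate 2, and line 1A4 (Nup133+/+, Sox1gfp/+, 40 Chr, XY). Knockout lines 14 (Nup133-/-, 40 Chr, XY) and 19 (Nup133-/-, likely 40 Chr, XY) are CRISPR/Cas9 derivatives of HM1. Knockout line 319 (Nup133merm/merm and Sox1gfp/+) has 42 chromosomes, XX with an added 8 and an added 12, and was derived from a blastocyst, as was 1A4, so 1 Sox1 allele carries gfp in these lines. Each line other than HM1 gave 1 sample a day, and each group of genotype and day held 3 samples. At day 2 the cells had grown in N2B27, a serum-free neural medium without LIF, after removal of the feeder fibroblasts. At day 3 they had spent a further 24 h in fresh medium with 1 µM all-trans retinoic acid. No day 3 sample without retinoic acid was analysed, so the agent, the medium change and the added day cannot be told apart. P-values measure how much the changes over the days, day 0 included, spread between series of a genotype. Of the 3 control series 2 are replicates of the 1 line HM1.

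Retinoic acid binds RAR receptors paired with RXR on DNA and turns on genes that carry a retinoic acid response element, often a direct repeat of a short motif. Among these genes are the enzymes that degrade it, led by Cyp26a1, the receptor Rarb, and Hox genes, which are switched on in the order of their place in the cluster. In cells leaving pluripotency the signal drives neural and posterior identity and shuts off pluripotency and epiblast genes.

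The promoters of the 3 genes with a called interaction are shown with that of Rarb, a receptor gene with a known element. They let the presence or absence of a repeat with a spacing of 5 bases be read beside the values. Each line gives the 250 bases before the RefSeq start site on GRCm38.p6, 5′ to 3′ on the gene's strand. Capitals mark any 2 repeat units, or their reverse complements, that lay 5 bases apart in the same orientation. The unit AGGTCA is the consensus for this family of receptors. Its variant AGTTCA makes up the element of Cyp26a1 and the downstream unit of Rarb. The upstream unit of Rarb is the variant GGTTCA, and the remaining variant searched was GGGTCA. The windows are chr19:37697558-37697807 (plus strand) for Cyp26a1, chr14:16575477-16575726 (minus strand) for Rarb, chr11:84525535-84525784 (minus strand) for Lhx1 and chr4:82885152-82885401 (minus strand) for Cer1.
Cyp26a1: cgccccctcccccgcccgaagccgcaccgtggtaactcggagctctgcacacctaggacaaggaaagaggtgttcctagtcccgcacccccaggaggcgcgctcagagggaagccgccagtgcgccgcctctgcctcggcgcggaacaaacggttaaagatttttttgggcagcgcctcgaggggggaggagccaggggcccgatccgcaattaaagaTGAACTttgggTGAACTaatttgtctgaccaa
Rarb: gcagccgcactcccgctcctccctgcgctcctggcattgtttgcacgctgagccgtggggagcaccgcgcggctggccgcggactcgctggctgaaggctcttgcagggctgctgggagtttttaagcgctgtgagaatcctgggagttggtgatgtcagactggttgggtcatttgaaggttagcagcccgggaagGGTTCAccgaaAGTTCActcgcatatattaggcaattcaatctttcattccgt
Lhx1: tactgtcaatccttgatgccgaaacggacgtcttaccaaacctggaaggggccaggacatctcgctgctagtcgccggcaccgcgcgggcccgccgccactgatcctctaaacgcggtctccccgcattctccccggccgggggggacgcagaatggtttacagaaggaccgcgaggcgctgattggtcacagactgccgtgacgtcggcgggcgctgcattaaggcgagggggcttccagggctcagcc
Cer1: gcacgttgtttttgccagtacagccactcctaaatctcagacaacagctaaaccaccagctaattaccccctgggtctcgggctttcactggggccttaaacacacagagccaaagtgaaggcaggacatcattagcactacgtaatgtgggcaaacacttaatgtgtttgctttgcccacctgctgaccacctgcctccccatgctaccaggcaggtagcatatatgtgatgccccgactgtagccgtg
The pair of units lay 15 bases before the start of Cyp26a1 and 36 bases before that of Rarb, and these letters were not in the windows of Lhx1 and Cer1. Both strands were searched, and 29 of 32851 RefSeq windows of this length (0.0883%) held such a pair. They belong to 28 symbols, of which 9 were tested, 4 rose in the controls and 1 (Cyp26a1) was called in the interaction. Over all genes tested, 12.5% rose in the controls and 0.0164% were called in the interaction. Of the retinoid list described below, 18 genes matched a window and 2 held the pair, Cyp26a1 and Rarb. A match describes letters and is no evidence of binding. Other spacings and bases outside the windows were not searched, so a window without the pair does not show that a gene lacks an element.

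One library stood apart before any comparison. Gene counts ran from 16.5 M in line 19 at day 2 up to 54.4 M in line 14 at day 3. In that line 19 library, ribosomal protein genes took 11.61% of the counts, against 4.44% to 5.75% in the other 11 samples. The 50 most abundant genes took 25.59% there and 10.57% to 12.57% elsewhere, and mitochondrial genes 0.71% against 1.13% to 1.81%. The median absolute change over all genes was 0.98 on the log2 scale in line 19 and lay between 0.39 and 0.48 in the other 5 series. Over the genotypes it was 0.62 ± 0.31 in the knockout and 0.41 ± 0.01 in the controls (SD, n = 3), which 3 series against 3 cannot tell apart (exact two-sided permutation test, p = 0.2, where the smallest possible p is 0.1). Values without line 19 are therefore given beside the results that rested on it most.

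**Figure D1:**
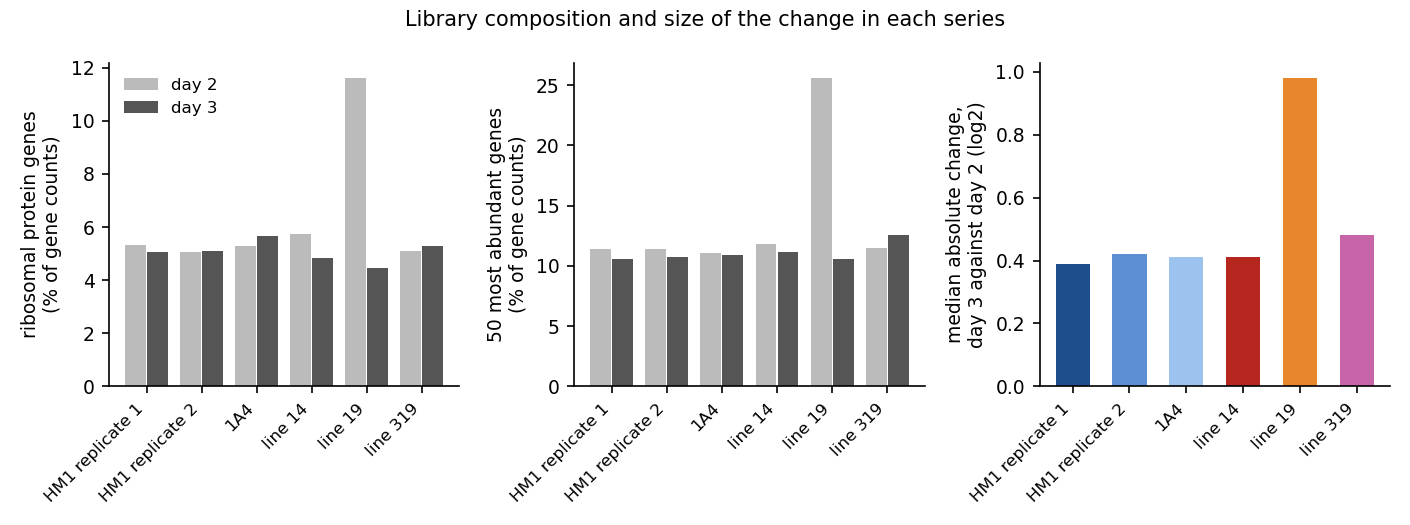
Share of gene counts from ribosomal protein genes (left) and from the 50 most abundant genes (middle), as bars for day 2 and day 3 of each series, and the median absolute log2 change from day 2 to day 3 over 18279 genes (right). Line 19 at day 2 stands at 11.61% and 25.59%, and its median change of 0.98 lies above the 0.39 to 0.48 of the other 5 series.

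Nup133 itself checked the labels. At day 2 it stood at 228.6, 235.5 and 267.6 CPM (counts per 1000000, TMM-scaled) in HM1 replicate 1, HM1 replicate 2 and 1A4, and at 20.2, 36.0 and 19.9 CPM in lines 14, 19 and 319. At day 3 the levels were 186.9, 179.5 and 216.0 CPM in the controls and 17.2, 24.1 and 14.3 CPM in the knockout lines. The groups did not overlap on either day, and the interaction was -0.10 ± 0.17 (SE; adjusted p = 0.83, edgeR; -0.02 without line 19). Gm20388 overlaps Nup133.

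Both genotypes changed a large part of their transcriptome in the 24 h. In the controls 3988 of 18279 genes changed (21.8%), 2291 higher (12.5%) and 1697 lower (9.28%) at day 3. In the knockout lines 5968 changed (32.6%), 3277 higher (17.9%) and 2691 lower (14.7%). Without line 19 the counts were 7194 and 6095 of 18788 genes (38.3% and 32.4%), so the larger number in the knockout did not hold without that line. The genotypes shared 3023 calls, which is 75.8% of the control calls and 50.7% of the knockout calls, and 3016 of these had the same sign. Of the 3988 control calls, 97.9% moved in the same direction in line 14, 96.8% in line 319 and 87.4% in line 19.

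Against that shared change, 3 of 18279 genes differed in their response between the genotypes (0.0164%), all with a higher interaction: Cyp26a1, Lhx1 and Cer1. None had a lower one, and 1419 genes (7.76%) had an unadjusted p under 0.05 in either direction (edgeR quasi-likelihood test). Without line 19, 10 of 18788 genes were called (0.0532%), 7 higher (0.0373%) and 3 lower (0.016%), and the 3 genes remained among them. DESeq2 called 126 genes (0.689%), 78 higher (0.427%) and 48 lower (0.263%), among them the same 3. Without the series block 7 were called (0.0383%), 5 higher (0.0274%) and 2 lower (0.0109%). The calls were fewer under other settings: 1 with transcripts added up (Cyp26a1), 0 with days 2 and 3 alone and 0 in the HM1-derived series alone (1275 and 1955 genes at an unadjusted p under 0.05, edgeR quasi-likelihood test). Without line 319 they numbered 36, 23 higher and 13 lower, with the 3 genes among them. The median interaction over all genes was 0.02 with all series and 0.01 without line 19.

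**Figure D2:**
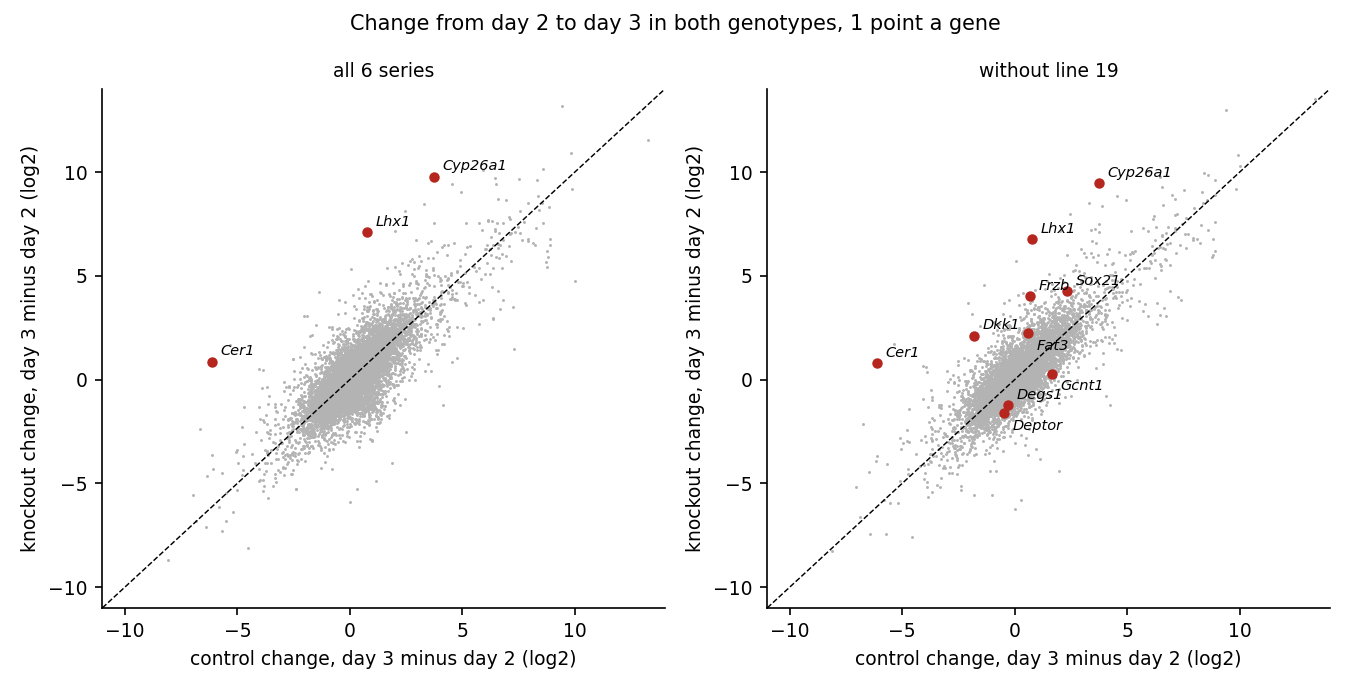
Log2 change from day 2 to day 3 in the controls (x axis) and in the knockout lines (y axis), 1 point a gene, with all 6 series (left) and without line 19 (right). The dashed line marks equal change and red points are the called interactions, 3 on the left and 10 on the right.

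Cyp26a1, which encodes the enzyme that hydroxylates and clears retinoic acid, was the gene with the smallest p. At day 2 it stood at 4.83, 5.32 and 4.28 CPM in the controls and at 0.27, 0 and 0.13 CPM in lines 14, 19 and 319 (14, 0 and 3 counts). At day 3 the controls held 59.8, 62.8 and 68.3 CPM and the knockout lines 136.5, 119.9 and 194.7 CPM. The knockout lines were thus below every control before retinoic acid and above every control after it. The gene rose by 3.74 ± 0.29 in the controls and by 9.78 ± 0.43 in the knockout lines, an interaction of 6.04 ± 0.49 (adjusted p = 0.00059; 5.73 and 0.0023 without line 19). The call was lost with days 2 and 3 alone (adjusted p = 0.082) and in the HM1-derived series alone (0.095). In pooled counts the knockout rise was 787-fold, with a 95% interval of 491 to 1350 that covers counting error only, and in line 19, at 0 counts on day 2, it was at least 530-fold (against 3 counts). The larger part of the interaction lay at day 2, where the knockout minus control difference was -4.71, against 1.24 at day 3 (fit without the series block). Cyp26a1 (chromosome 19, 37697798 to 37701536, plus strand) is the bearer of the repeat shown above. In bulk RNA fewer cells of a type and less RNA per cell cannot be told apart.

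Lhx1 encodes a LIM homeodomain factor of the anterior mesendoderm and of some spinal neurons. It stood at 4.88, 5.65 and 4.87 CPM in the day 2 controls and at 6.48, 5.11 and 15.5 CPM in the day 3 controls, a change of 0.77 ± 0.47 that was not called (adjusted p = 0.27). In lines 14, 19 and 319 it went from 0.29, 0 and 0.48 CPM to 24.6, 34.1 and 68.0 CPM. The change of 7.11 ± 0.64 was called in the knockout, and the groups did not overlap on either day. The pooled knockout rise was 136-fold (95% counting interval 93.0 to 209), and at least 151-fold in line 19. The interaction was 6.35 ± 0.78 (adjusted p = 0.026; 6.01 and 0.043 without line 19). That call was lost without HM1 replicate 1 (adjusted p = 0.33), without HM1 replicate 2 (0.068) and without line 14 (0.17), with estimates of 6.18, 6.06 and 6.84. Lhx1 occupies 84518284 to 84525535 of chromosome 11 (minus strand, GRCm38).

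Cer1, a secreted antagonist of Nodal, BMP and Wnt made by anterior endoderm, followed another course. The controls fell from 5.46, 5.23 and 2.4 CPM at day 2 to 0.05, 0.07 and 0.05 CPM at day 3, which is 2 counts in each library. The pooled fall was 75.3-fold (95% counting interval 34.4 to 206). Lines 14, 19 and 319 held 0.13, 0.08 and 0.04 CPM at day 2 and 0.23, 0.17 and 0.08 CPM at day 3, and their change of 0.86 ± 0.61 was not called (adjusted p = 0.31). The interaction of 6.99 ± 0.81 (adjusted p = 0.031; 6.92 and 0.043 without line 19) is thus a fall in the controls of a gene that was near 0 in the knockout on both days. Its call was lost without any 1 of the controls (adjusted p = 0.13, 0.58 and 0.058) and without line 14 (0.23). Cer1 occupies 82881751 to 82885148 of chromosome 4 (minus strand).

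Markers of other cell types were read beside these 3 genes. The summed mesendoderm markers (T, Mixl1, Eomes, Gsc) stood at 12.1 to 24.2 CPM in the day 2 controls and 8.2 to 24.3 CPM in the day 2 knockout lines, and all 4 were above 0.1 CPM on average in each group. The sums were 24.2, 19.8 and 12.1 CPM in the day 2 controls and 8.5, 8.2 and 24.3 CPM in lines 14, 19 and 319. Within that list T was at 14.4, 11.4 and 5.17 CPM in the day 2 controls and 0.82, 0.60 and 2.12 CPM in the knockout lines. Eomes stood at 7.44, 6.34 and 5.74 CPM in the controls and 6.86, 5.58 and 20.92 CPM in the knockout lines. For Mixl1 the levels were 1.37, 1.32 and 0.85 CPM and 0.61, 0.6 and 0.95 CPM. Those of Gsc were 0.92, 0.7 and 0.36 CPM and 0.25, 1.43 and 0.3 CPM. Fibroblast markers (Col1a1, Col1a2, Thy1, Postn) summed to 72.2 to 91.8 CPM in the day 2 controls and 55.7 to 68.9 CPM in the knockout, where Postn was under 0.1 CPM. Their part in the result was not tested.

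**Figure D3:**
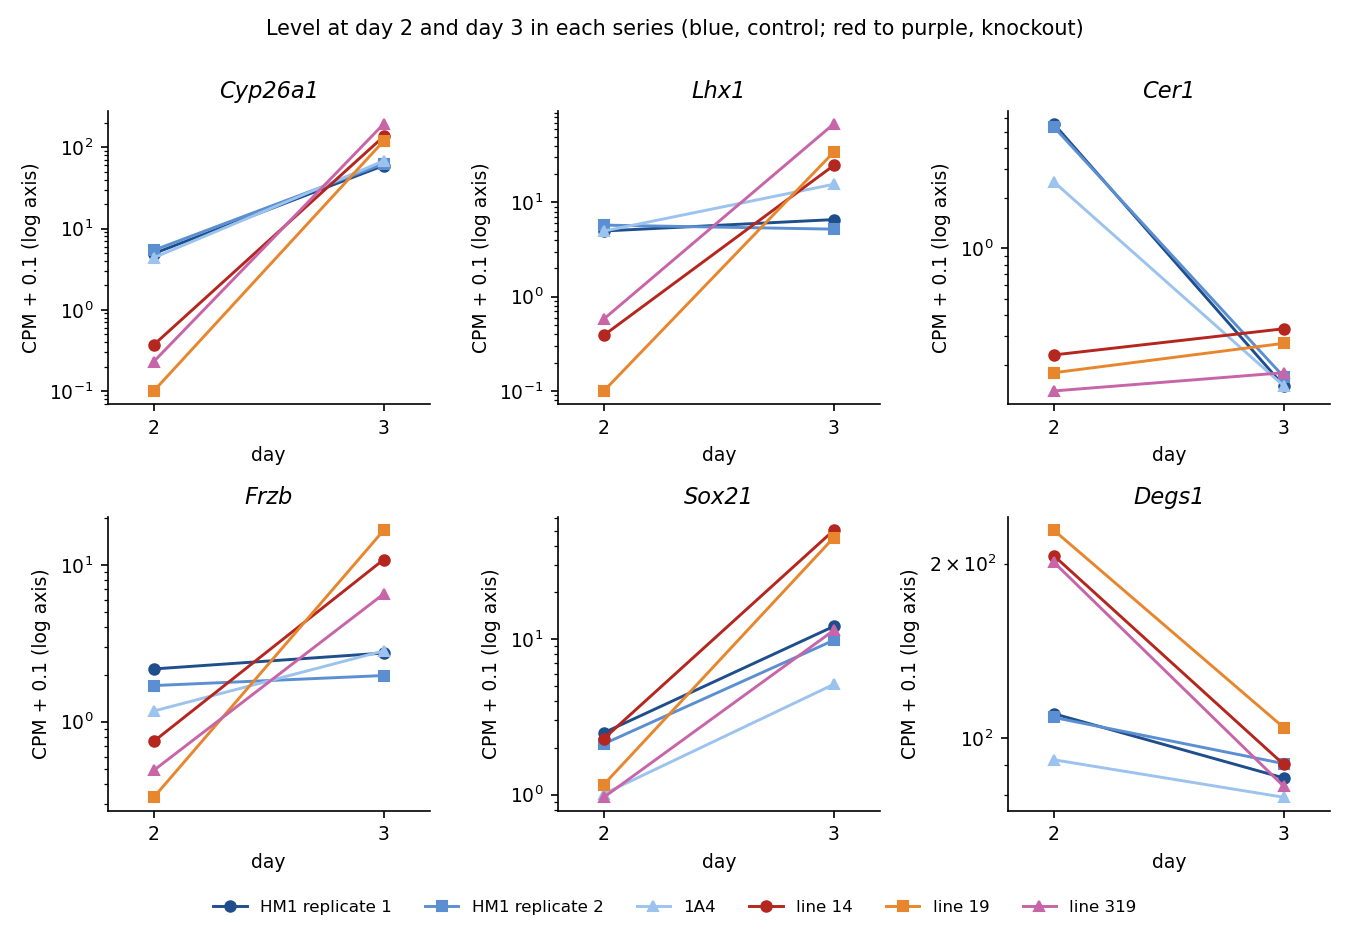
Level (CPM + 0.1, log axis, each panel with its own range) at day 2 and day 3 of the 3 genes called with all series and of Frzb, Sox21 and Degs1, called without line 19, with 1 line a series. The lines of the 3 knockout series start below those of the controls and end above them for Cyp26a1, Lhx1 and Frzb, and the controls alone fall steeply for Cer1.

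Leaving out line 19 added 7 genes, of which Frzb, Dkk1 and Sox21 are list members and Fat3, Degs1, Gcnt1 and Deptor were named after their values were seen. Frzb and Dkk1 encode secreted Wnt antagonists. Frzb stood at 2.07, 1.60 and 1.07 CPM in the day 2 controls and 2.64, 1.87 and 2.73 CPM at day 3, against 0.65, 0.23 and 0.39 CPM and then 10.7, 16.5 and 6.42 CPM in lines 14, 19 and 319. Its order was reversed between the days, and its interaction was 3.85 ± 0.54 (adjusted p = 0.053; 3.35 and 0.043 without line 19). With all series Frzb was called without the filter on low counts, with the longest transcript and without the series block. Dkk1 fell in the controls by 1.79 ± 0.41 (from 1.64, 1.37 and 0.93 CPM to 0.38, 0.43 and 0.31 CPM) and rose in the knockout lines by 2.11 ± 0.51 (from 0.06, 0.23 and 0.22 CPM to 0.20, 0.82 and 1.1 CPM). The interaction of Dkk1 was 3.90 ± 0.65 (adjusted p = 0.16; 3.92 and 0.043 without line 19).

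Sox21, a neural progenitor factor, rose in both genotypes. The controls went from 2.4, 2.02 and 0.91 CPM to 12.0, 9.75 and 5.02 CPM, and lines 14, 19 and 319 from 2.19, 1.06 and 0.86 CPM to 50.2, 45 and 11.3 CPM. The levels overlapped at day 2, and at day 3 line 319 lay within the control range, while all 3 knockout changes exceeded all 3 control changes (interaction 2.16 ± 0.37, adjusted p = 0.16; 1.91 and 0.043 without line 19). Gm4675 overlaps Sox21. Fat3, a giant atypical cadherin, was at 22.6, 18.4 and 17.5 CPM in the day 2 controls and 9.33, 4 and 5.58 CPM in the knockout, and the levels overlapped at day 3 (41.3, 23.1 and 27.3 against 44.7, 44.0 and 26.5 CPM). Its interaction was 1.96 ± 0.40 (adjusted p = 0.27; 1.63 and 0.043 without line 19).

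The 3 genes with a lower interaction without line 19 were Degs1, Gcnt1 and Deptor. Degs1, the desaturase of the last step of ceramide synthesis, stood at 110.2, 108.6 and 91.8 CPM in the day 2 controls and 206.3, 228.2 and 201.0 CPM in the knockout lines. At day 3 the levels were 85.4, 90.4 and 79.1 CPM and 90.1, 104.3 and 82.6 CPM, so a separation at day 2 had closed at day 3. The knockout lines fell by 1.20 ± 0.13 on the log2 scale, and the control change of -0.28 ± 0.13 was called without line 19 (-0.29, adjusted p = 0.0088) but not with it (interaction -0.92 ± 0.18, adjusted p = 0.27; -0.96 and 0.032 without line 19). Gcnt1, a glycosyltransferase that branches O-glycans, rose in the controls from 28.2, 32.3 and 26.7 CPM to 90.8, 99.7 and 82.4 CPM. In lines 14, 19 and 319 it went from 44.7, 21.6 and 45.6 CPM to 60.6, 67.3 and 50.4 CPM, and line 19 alone changed as much as the controls (interaction -0.97 ± 0.36, adjusted p = 0.57; -1.36 and 0.043 without line 19). For Deptor, an inhibitor of mTOR kinase, the interaction was -0.86 ± 0.33 (adjusted p = 0.58; -1.14 and 0.043 without line 19), with 137.4 and 139.7 CPM in lines 14 and 319 at day 2 but 57.7 CPM in line 19, where the controls held 78.2 to 92.9 CPM.

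The 24 gene lists held 456 genes, of which 437 were tested. Cyp26a1, Lhx1 and Cer1 were the only members called, and 6 members were called without line 19. In 121 of the 437 (27.7%) the 3 knockout changes did not overlap the 3 control changes, where 18.8% of all genes tested did so (10.5% with the knockout changes above and 8.35% below). The members were chosen with earlier results of these data known, so these shares are a description and no independent comparison. No list was tested, and counts and medians describe it beside the all-gene median of 0.02. Counts of members that rose or fell stand beside all-gene shares of 12.5% and 9.28% in the controls. In the knockout lines these shares were 17.9% and 14.7%. The larger number of changed genes in the knockout did not hold without line 19, and list counts of rises and falls without it are not given. Unless called above, no gene named below passed the test of the interaction.

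**Figure D4:**
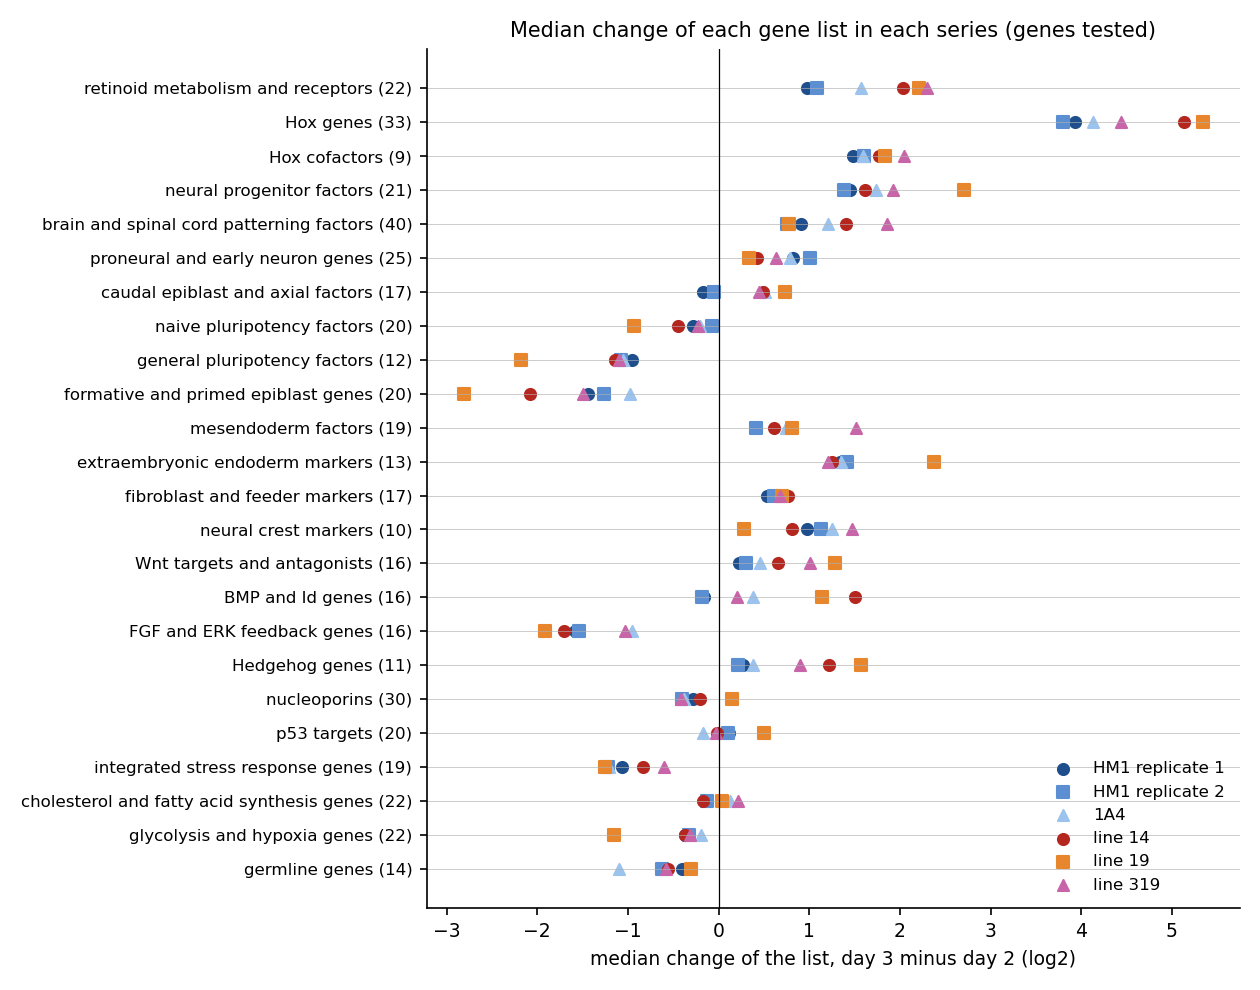
Median log2 change from day 2 to day 3 of each gene list (number of genes tested in brackets), 1 symbol a series, blue for controls and red to purple for knockout lines. Knockout symbols lie to the right of the controls for the retinoid, Hox, Hox cofactor, Wnt and Hedgehog lists. They lie to the left for the general pluripotency, formative and primed epiblast, and proneural and early neuron lists. Line 19 lies far from the other 5 series for general pluripotency and for glycolysis and hypoxia genes.

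The retinoid list covers metabolism, binding proteins, receptors and targets. Its 22 tested members (Cyp26c1 was not tested) had a median interaction of 0.21 (0.11 without line 19), with 1 called, 8 with the knockout changes above the controls and 2 below. In the controls 11 rose and 1 fell, and in the knockout lines 17 rose and 2 fell. Apart from Cyp26a1, Aldh1a2 and Crabp1, its members were named after their values were seen. Aldh1a2, the main enzyme that makes retinoic acid in the embryo, stood at 1.60, 1.46 and 1.23 CPM in the day 2 controls and 2.39, 1.90 and 1.48 CPM at day 3. In lines 14, 19 and 319 it went from 1.12, 0.98 and 0.78 CPM to 7.72, 11.6 and 3.41 CPM, a called rise of 2.88 ± 0.40 (interaction 2.46 ± 0.53, adjusted p = 0.28). Its relative Aldh1a3 had an interaction of 2.51 (adjusted p = 0.58) at mean levels under 1 CPM, and Aldh1a1 one of 0.69 (0.76; 0.09 without line 19). For Rdh10, which makes retinal from retinol, the interaction was 0.92 (0.62), for Rdh11 0.11 (0.84), and for Dhrs3, which turns retinal back to retinol, -1.13 (0.64), with 0.04 and -0.73 for the last 2 without line 19.

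Of the retinoid binding proteins, Crabp1 went from 14.9, 16.1 and 12.6 CPM to 25.0, 20.8 and 19.3 CPM in the controls, a change that was not called. In lines 14, 19 and 319 it went from 12.1, 27.1 and 6.83 CPM to 70.3, 80.4 and 21 CPM, so that line 319 at day 3 lay within the controls (called rise 1.91 ± 0.30; interaction 1.33 ± 0.41, adjusted p = 0.45). Crabp2, the other cytosolic binding protein, rose in both genotypes, from means of 47.8 and 38.9 CPM to 981.3 and 1133.1 CPM (interaction 0.57, adjusted p = 0.69). The retinol transporter Stra6 also rose in both (interaction 0.48, adjusted p = 0.72).

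Among the receptors, Rarb had the largest rise. It went from 0.07, 0.23 and 0.22 CPM to 33.4, 30.2 and 33.0 CPM in the controls and from 0.15, 0 and 0 CPM to 73.0, 109.0 and 32.6 CPM in lines 14, 19 and 319. Line 319 stood level with the controls at day 3 and the other 2 knockout lines above them. The interaction was 2.15 ± 0.87 (adjusted p = 0.60; 1.62 without line 19), and Top2b overlaps Rarb. Rara rose in both genotypes with an interaction of -0.61 (adjusted p = 0.57), and Rarg fell in the knockout (-0.65, 0.65; -0.43 without line 19). Those of Rxra, Rxrb and Rxrg were 0.32, -0.12 and -1.07 (adjusted p = 0.76, 0.81 and 0.66), and 0.17, 0.02 and -0.47 without line 19. Of the remaining targets and cofactors, Cyp26b1, Stra8, Nrip1 and Tgm2 rose in both genotypes with interactions of -0.17, -0.70, 0.64 and -0.66, and Ncoa7 had 0.07. Without line 19 Cyp26b1, Nrip1, Tgm2 and Ncoa7 had -0.47, 0.14, -0.41 and -0.45, so the sign of Ncoa7, like that of Rxrb, was not kept.

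Hox genes rose broadly. Of 33 tested, 23 rose in the controls and 29 in the knockout lines, none fell, and none was called in the interaction (5 at an unadjusted p under 0.05). Their median interaction was 0.49 (0.30 without line 19, and 0.49 with the 3 genes that had a group at 0 counts set to 3 counts), with the knockout changes above the controls in 11 genes and below in 2. Grouped by place in the cluster, a division made after the values were seen, the 12 genes of paralogue groups 1 to 4 had a median interaction of -0.06, the 8 of groups 5 to 7 had 0.53, and the 13 of groups 8 to 13 had 1.13 (-0.19, 1.4 and 1.09 without line 19). In the last class the median change was 1.33 in the controls and 2.74 in the knockout lines, 11 of 13 estimates were above 0, and in 8 the knockout changes lay above the controls. One of those 8, Hoxb13, had a fitted interaction of -1.99 ± 1.25, and its controls held no count at day 2.

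Hoxb8 and Hoxb9, of the posterior part of the cluster, show the pattern in single series. Hoxb8 stood at 0.11, 0.26 and 0.04 CPM in the day 2 controls and 3.52, 3.27 and 5.83 CPM at day 3, and in lines 14, 19 and 319 it went from 0.02, 0 and 0.13 CPM to 17, 33.5 and 36.0 CPM. Each day 3 knockout level was above each control level (interaction 4.09 ± 0.90, adjusted p = 0.28; 3.73 and 0.29 without line 19). Hoxb9 went from 0.27, 0.46 and 0.30 CPM to 1.88, 1.74 and 3.28 CPM in the controls and from 0.10, 0.08 and 1.17 CPM to 9.27, 18.6 and 28.8 CPM in the knockout lines (3.02 ± 0.65, 0.28). Among the 9 Hox cofactors, 5 rose in the controls and 7 in the knockout lines, with a median interaction of 0.33. Meis1, a TALE partner of Hox proteins, rose from under 1 CPM to 50.1, 43.4 and 36.9 CPM in the controls and to 104.0, 133.7 and 65.0 CPM in the knockout lines (0.62 ± 0.31, 0.64). For Pknox1 and Pbx2 the interactions were 0.53 and 0.33 (adjusted p = 0.65 and 0.66), with 0.27 for Pknox1 without line 19.

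**Figure D5:**
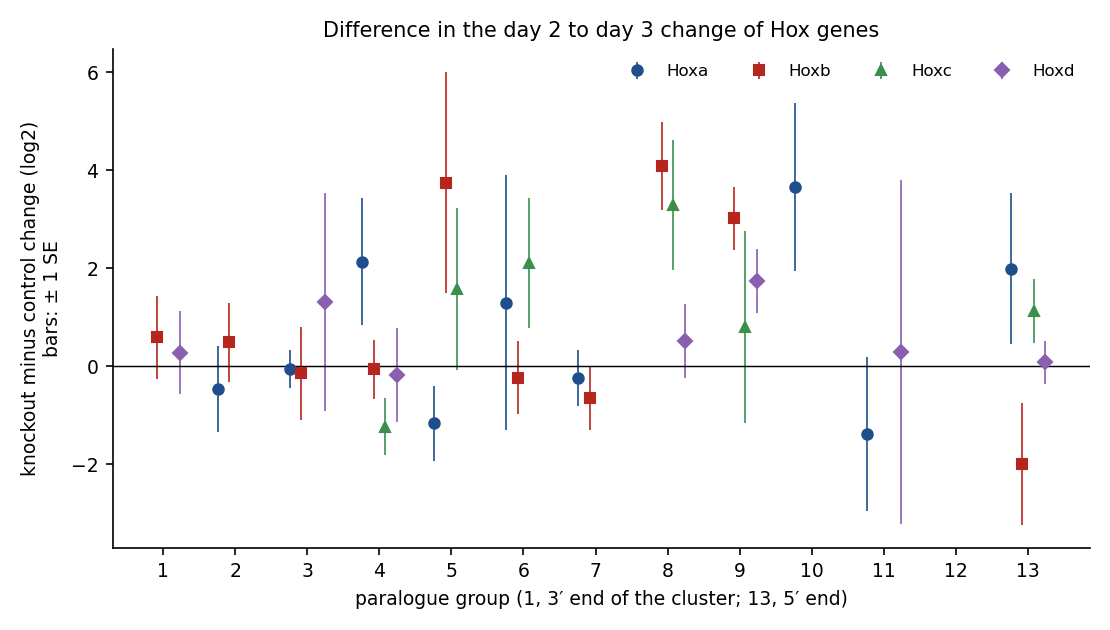
Interaction of all but 1 of the 33 tested Hox genes (knockout minus control log2 change, bars ± 1 SE) against paralogue group, coloured by cluster. Values for groups 1 to 4 spread around 0 (median -0.06 over all 12), and those for groups 8 to 13 have a median of 1.13 with wide errors at low counts.

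Neural progenitor factors (21 tested) had a median interaction of 0.30, which was 0.05 without line 19. In each genotype 13 rose and 3 fell. Estimates were above 0 in 13 members and below 0 in 8. Summed markers (Sox1, Pax6, Nes, Sox3) stood at 216.1 to 274.4 CPM in the day 2 controls and 281.5 to 330.0 CPM at day 3. In the knockout they stood at 92.6 to 226.7 CPM and then 259.6 to 885.5 CPM. Among them, Sox3 rose in the controls (23.07, 18.34 and 16.44 CPM to 46.06, 45.45 and 41.53 CPM). In lines 14, 19 and 319 Sox3 went from 28.55, 65.58 and 15.6 CPM to 36.66, 25.54 and 34.04 CPM. Pax6, a homeodomain factor of the neural tube, rose from 6.02, 5.72 and 5.39 CPM to 42.5, 24.5 and 23.5 CPM in the controls and from 10.8, 10.3 and 3.37 CPM to 179.0, 322.3 and 36.4 CPM in lines 14, 19 and 319. Line 319 lay within the control range at day 3 and the HM1-derived knockout lines above it (interaction 1.84 ± 0.37, adjusted p = 0.27; 1.44 and 0.20 without line 19). Nes, an intermediate filament of neural progenitors, stood at 237.9, 186.6 and 245.6 CPM in the day 2 controls and 107.2, 144.3 and 73.1 CPM in the knockout lines. At day 3 it was at 160.8, 135.8 and 214.4 CPM and at 273.3, 443.9 and 171.2 CPM (1.8 ± 0.45, 0.34). The rise of Nes was called in the knockout and no change was called in the controls.

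Brain and spinal cord patterning factors (40 tested) had a median interaction of -0.10, which was 0.07 without line 19, with Lhx1 as the only call. Dmrt3, a factor of spinal interneurons, rose in the controls (0.31, 0.23 and 0.36 CPM to 1.02, 1.54 and 1.28 CPM) and was already at 2.15, 3.17 and 1.73 CPM in the knockout lines at day 2, with 2.16, 1.30 and 2.30 CPM at day 3 (interaction -2.31 ± 0.48, adjusted p = 0.27). Proneural and early neuron genes (25 tested) had a median of -0.36 (-0.13 without line 19). Ebf1 rose in the controls from 6.94, 5.23 and 3.07 CPM to 12.3, 17 and 30.8 CPM, and lines 14, 19 and 319 held 19.6, 14.3 and 8.34 CPM before and 4.30, 3.64 and 14.6 CPM after (-3.11 ± 0.77, 0.34), so line 319 did not share the direction of the other knockout lines. Stmn2, a tubulin regulator of neurons, fell in the knockout by 1.62 ± 0.27 (interaction -1.19 ± 0.37, adjusted p = 0.46), and Mnx1, a motor neuron factor, rose in both genotypes (-1.86 ± 0.66, 0.54; -1.08 without line 19). Summed neuron markers fell within similar ranges, from 178.8 to 224.7 CPM to 97.0 to 124.6 CPM in the controls and from 153.6 to 299.8 CPM to 80.0 to 112.5 CPM in the knockout.

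Pluripotency and epiblast lists had medians below 0. The 12 general pluripotency factors had a median interaction of -0.60 (-0.32 without line 19), with 10 estimates below 0. In the controls 7 fell and in the knockout 11. Tdgf1, a Nodal co-receptor, fell from 92.8, 114.7 and 87.6 CPM to 16.3, 24.3 and 15.8 CPM in the controls and from 77.7, 46.5 and 323.9 CPM to 2.16, 0.55 and 9.34 CPM in lines 14, 19 and 319. All knockout levels at day 3 lay below all control levels (interaction -2.89 ± 0.73, adjusted p = 0.34; -2.72 and 0.26 without line 19). Utf1, a chromatin factor of pluripotent cells, had -1.91 ± 0.83 (adjusted p = 0.62; -0.96 without line 19), and Sox2 -0.62 ± 0.22 (0.55), where its levels at day 2 were 142.0, 155.3 and 114.5 CPM in the controls and 271.9, 183.3 and 266.4 CPM in the knockout and met at day 3. Sox2ot overlaps Sox2.

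The 20 formative and primed epiblast genes had a median of -0.36 (-0.41 without line 19), 17 estimates below 0 and 6 genes with the knockout changes below the controls. Otx2, a homeodomain factor of the epiblast, fell from 153.4, 178.1 and 163.9 CPM to 2.66, 3.54 and 3.30 CPM in the controls and from 235.2, 170.7 and 304.3 CPM to 1.31, 1.27 and 1.94 CPM in the knockout (-1.60 ± 0.62, adjusted p = 0.58). For Tcf15 and Igfbp3 the interactions were -2.07 ± 0.77 and 0.95 ± 0.29 (adjusted p = 0.57 and 0.45), with -1.16 for Tcf15 without line 19. Summed markers of the primed epiblast stood at 3138.7 to 3500.4 CPM in the day 2 controls and 2320.3 to 3653.7 CPM in the knockout, and at 148.1 to 251.7 CPM and 145.8 to 190.6 CPM at day 3. Naive pluripotency factors (20 tested) had a median of -0.25, 15 estimates below 0, and 5 genes with knockout changes below the controls and none above. In that list Tdh, a threonine dehydrogenase of embryonic stem cells, fell by 3.27 ± 0.32 in the controls and by 4.95 ± 0.35 in the knockout (-1.68 ± 0.42, 0.34). Socs3, a feedback inhibitor of LIF signalling, rose in the controls (9.80, 8.32 and 7.13 CPM to 17, 23.3 and 18.9 CPM) and stood at 8.36, 6.63 and 5.40 CPM and then 6.92, 4.19 and 8.80 CPM in the knockout lines (-1.26 ± 0.37, 0.43). Prdm14 had -1.09 ± 0.48 (0.62). Summed naive markers ranged from 66.8 to 348.6 CPM in the day 2 knockout lines, wider than the 223.0 to 301.8 CPM of the controls.

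Mesendoderm factors (19 tested) held 2 of the 3 calls, Lhx1 and Cer1, and had the highest list median, 0.81 (0.99 without line 19). Of their estimates 16 were above 0, and in 8 genes the knockout changes lay above the controls against 1 below. In the caudal epiblast list (17 tested) the median was 0.25. T (Brachyury), the factor of the primitive streak, fell in the controls from 14.4, 11.4 and 5.17 CPM to 3.85, 4.27 and 3.44 CPM, while lines 14, 19 and 319 held 0.82, 0.60 and 2.12 CPM and then 0.99, 1.10 and 2.90 CPM (interaction 1.79 ± 0.65, adjusted p = 0.54). Nkx1-2, a homeobox gene of the caudal epiblast, went from 13.5, 7.79 and 2.44 CPM to 10.3, 4.11 and 9.97 CPM in the controls and rose in the knockout from 1.41, 1.51 and 2.55 CPM to 8.18, 15.1 and 57.3 CPM (3.37 ± 0.80, 0.31). Fgfr2 overlaps Nkx1-2. Tbx6, a paraxial mesoderm factor, had -0.93 ± 0.40 (0.62). Extraembryonic endoderm markers (13 tested) had a median of 0.66 (0.34 without line 19). There Sox17 rose from 1.15, 1.21 and 0.46 CPM to 2.26, 3.04 and 9.94 CPM in the controls and from 0.13, 0.15 and 0.35 CPM to 5.07, 6.14 and 10.5 CPM in the knockout (2.86 ± 0.81, 0.42), and Sox17 was called without line 1A4 (3.93, adjusted p = 0.027). Dab2 and Cubn had interactions of -0.68 and 0.93 (adjusted p = 0.58 and 0.65), with 0.46 for Cubn without line 19.

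Signalling genes were read list by list. Hedgehog genes (11 tested) had a median interaction of 0.30 (0.21 without line 19) with 10 estimates above 0. Shh, the ligand, stood at 2.20, 2.37 and 0.75 CPM in the day 2 controls and 1.59, 2.07 and 0.81 CPM at day 3, and at 0.04, 0 and 0 CPM and then 0.28, 0.10 and 0.13 CPM in the knockout lines. Its pooled knockout rise was 8.67-fold (95% counting interval 2.16 to 75.5, from 2 counts to 25), and its interaction was 3.42 ± 0.77 (adjusted p = 0.28). The rise of the transducer Gli3 was called in the knockout and no change was called in the controls (57.0, 62.8 and 52.9 CPM to 68.9, 71.6 and 62.7 CPM in the controls, and 46.5, 25.4 and 43.7 CPM to 108.1, 142.9 and 81.5 CPM in the knockout), with an interaction of 1.27 ± 0.32 (0.34; 0.82 without line 19). For Hhip, a decoy that binds the ligand, it was 2.64 ± 0.78 (0.43), and Hhip too rose in the knockout.

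Wnt targets and antagonists (16 tested) had a median of 0.24. Lgr5, a receptor for R-spondins, rose in the knockout from 0.84, 0.53 and 0.43 CPM to 4.11, 8.55 and 2.95 CPM and was at 1.51, 1.91 and 1.43 CPM and then 2.26, 1.5 and 1.72 CPM in the controls (interaction 2.76 ± 0.49, adjusted p = 0.16; 2.29 and 0.12 without line 19). Sp5, a direct Wnt target, had 3.97 ± 1.08 (0.39), with levels at or below 1.53 CPM outside line 319. BMP and Id genes (16 tested) had a median of 0.10. The ligand Bmp2 rose in both genotypes, by 1.30 ± 0.37 and by 3.66 ± 0.47 (2.37 ± 0.60, 0.34). The controls went from 2.43, 3.32 and 2.38 CPM to 6.03, 6.24 and 7.08 CPM. Lines 14, 19 and 319 went from 0.17, 0.53 and 0.35 CPM to 3.9, 5.97 and 2.3 CPM, still below every control. The antagonists Nog and Grem1 had 2.44 ± 0.89 and 1.24 ± 0.55 (adjusted p = 0.55 and 0.62), with 0.67 for Grem1 without line 19. Nog held 1, 0 and 9 counts in the day 2 knockout lines, and changed by 0.08 in line 319. Its day 3 mean was 0.57 CPM in the knockout and 1.9 CPM in the controls. FGF and ERK feedback genes (16 tested) had a median of -0.31, which was 0 without line 19. The ligands Fgf15 and Fgf3 had 1.62 ± 0.49 and 1.51 ± 0.59 (adjusted p = 0.44 and 0.59) and the inhibitor Spry1 -0.94 ± 0.38 (0.60), with 10 of the list falling in the controls and 9 in the knockout.

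Integrated stress response genes (19 tested) fell in most members of both genotypes, 15 in the controls and 12 in the knockout, with a median interaction of 0.34 (0.59 without line 19). In 7 the knockout changes lay above the controls and in none below. Sesn2, a stress-induced inhibitor of mTORC1, fell in the controls from 206.3, 219.5 and 234.7 CPM to 107.7, 98.5 and 85.0 CPM and stood at 189.2, 228.2 and 244.0 CPM and then 168.6, 204.0 and 209.3 CPM in the knockout. The groups overlapped at day 2 and were apart at day 3 (interaction 1.01 ± 0.23, adjusted p = 0.31; 0.99 and 0.25 without line 19). Gm12981 overlaps Sesn2. Vldlr, a lipoprotein receptor, and Slc7a11, the cystine transporter, had 1.49 ± 0.43 (0.43; 1.06 without line 19) and 2.12 ± 0.82 (0.58; 1.30 without line 19). In the p53 list (20 tested, median 0.24, and 0.11 without line 19) Sesn1 had -0.62 ± 0.28 (0.63) and Ccng1 0.57 ± 0.35 (0.66; 0.22 without line 19).

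The remaining lists lay near the all-gene median or moved with line 19. Glycolysis and hypoxia genes (22 tested) had a median of -0.37 that was -0.03 without line 19, and Aldoa, Pgk1 and Car9 had -0.67, -0.43 and -1.44 (adjusted p = 0.62, 0.60 and 0.62), with -0.29 for Aldoa without line 19. Nucleoporins (30 tested) had 0.19 and 0.03 without line 19. Nup210l, a germline relative of the pore protein gp210, rose in the knockout from 3.90, 5.35 and 4.28 CPM to 9.78, 8.24 and 6.67 CPM and stayed between 0.57 and 0.88 CPM in the controls (1.08 ± 0.46, 0.62), while Pom121 and Tpr had 0.37 and 0.41 (0.64 and 0.66), with 0.11 for Tpr without line 19. Cholesterol and fatty acid synthesis genes (22 tested, median 0.04) included Elovl6, Acaca and Sc5d with -0.39, 0.34 and 0.41, and germline genes (14 tested, median 0.22) included Slc25a31, Mael and Tex101 with 0.72, -0.54 and 0.80. Without line 19 Acaca, Sc5d and Mael had 0.16, 0.15 and -0.29. Fibroblast and feeder markers (17 tested) had a median of -0.02, and their Mmp2, Fbn1 and Loxl1 had -0.78, 1.36 and -1.18 (adjusted p = 0.43, 0.45 and 0.56), with 0.87 and -0.72 for Fbn1 and Loxl1 without line 19. Neural crest markers (10 tested) had -0.34, and Sox10, Tfap2a and Ednrb had -1.45, -1.06 and 0.98 (0.59, 0.64 and 0.67), with 0.39 for Ednrb without line 19. Summed neural crest markers were at 17.9 to 27.7 CPM in the day 2 controls and 65.7 to 82.2 CPM in the knockout, nearly all of it Foxd3, which the epiblast expresses too, with Tfap2b under 0.1 CPM in both.

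Genes that changed in opposite directions were few. Dkk1, Cntnap3, Gabra5, Myocd and Caln1 fell in the controls and rose in the knockout, and Selenop and Tal1 rose in the controls and fell in the knockout. These 7 were chosen by their called changes, so their interactions, from 1.85 (Gabra5) to 3.90 (Dkk1) in the first set and -1.76 (Selenop) and -2.35 (Tal1) in the second, are a description. Selenop changed by 0.01 in line 319, against -1.42 in line 14 and -1.01 in line 19.

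No difference of the interaction between the genetic backgrounds was called. Set against each other, HM1-derived and blastocyst-derived series differed in 0 of 18279 genes (edgeR quasi-likelihood test; smallest adjusted p = 0.93, 625 genes at an unadjusted p under 0.05), with 1 series per genotype in the blastocyst-derived set, so that the spread rested on few samples. For Cyp26a1 the interaction was 5.87 in the HM1-derived series and 6.52 in the blastocyst-derived ones, for Lhx1 6.89 and 5.48, and for Cer1 7.29 and 6.24. Pax6, which was highest in the HM1-derived knockout lines, had 2.05 and 1.31. Estimates lay further apart for Hoxb8 (5.95 and 1.02), Hoxb9 (4.62 and 1.2), Sox17 (4.06 and 0.49) and Nog (5.24 and -0.21). Hhip was apart in the other direction (2.28 and 5.17). These genes were picked for their difference after the values were seen.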

How the data were processed

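Polyadenylated RNA of 18 biological samples was sequenced as stranded TruSeq libraries, 4 technical files a sample, per the labels' protocols. The authors deposited raw counts, 1 value for each Ensembl transcript and file. Per the submitters' processing notes the tools were bcl2fastq 2.17.1.14, STAR 2.4.0k, SAMtools and HTSeq, with the build mm10, and their settings, annotation and strand mode are not given in the sources used here. The 4 files of a sample differed no more than counting error (chi-square per degree of freedom 1.009 to 1.028 over genes with at least 40 counts) and were added up to 1 replicate.

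Of 110379 transcript identifiers 108309 matched GENCODE M21 on GRCm38, and the others held 1.43% to 2.46% of counts and were left out. For each of the 45407 genes the transcript with most counts overall was used, since a read could be counted for several transcripts or overlapping genes. Levels of overlapping genes are uncertain, and an overlap is named where that gene is first described. CPM are counts per 1000000 with TMM scaling.

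The test was edgeR 4.0.16 in R 4.3.3 with limma 3.58.1, using a robust quasi-likelihood fit of day, genotype by day and the 6 series as a block over all 18 samples. The filter filterByExpr kept 18279 genes, with 8 residual degrees of freedom and a common biological coefficient of variation of 0.235 (0.158 and 6 degrees of freedom without line 19). P-values were Benjamini-Hochberg adjusted over all genes tested and called under 0.05. Day 0 samples add to the spread only. Series pair the samples, being the same line on each day, and deviations from the group means correlated between days 2 and 3 at 0.13 to 0.40 in 5 series and at -0.09 in line 19. Differences at a single day came from a fit without the series block and with a term for genetic background. Changes per series used a prior count of 2. The fit was also run on simulated counts with known changes, whose spread was taken from the fit to these data. Those counts held no differences between series, and most changes of 1 log2 unit in them were not called.

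Genes named were Nup133, those called with all series and without line 19 (with non-overlapping changes and at least 2 CPM in the highest group), and the 3 members of each list with the smallest p. Fat3, Degs1, Gcnt1, Deptor, Rarb and the remaining retinoid genes, Hoxb13, single markers and the other genes of opposite change fall outside that rule. They were named after their values were seen. The values of 2 list members are not reported here, and list counts and medians include them. The members and lists were chosen with earlier results of these data known. Alternatives were the size factors of DESeq2 1.42.0, DESeq2 itself, no filter, days 2 and 3 alone, no series block, the longest transcript, transcripts added up, each series left out, and the HM1-derived series alone. Intervals and the floor of 3 counts cover counting error alone, as reads had no molecular identifiers. Promoter windows came from RefSeq tables on GRCm38.p6.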

Additional observations from a re-analysis of the deposited data

Results flagged for a closer look

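The change from day 2 to day 3 differed between the genotypes by the interaction term itself in Cyp26a1 (6.04), Lhx1 (6.35) and Cer1 (6.99), each on the log2 scale as the knockout change minus the control change. In Cyp26a1 and Lhx1 the knockout lines went from below every control to above every control. In Cer1 the controls fell to 2 counts a library and the knockout lines were near 0 on both days. The values without line 19 were 5.73, 6.01 and 6.92. The day 2 library of line 19, with 11.61% of its counts from ribosomal protein genes, enters each of these, and its part in the spread between knockout lines was not tested.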

How the results depend on the processing

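The called interactions numbered 3 with DESeq2's size factors, 4 without the filter, 4 with the longest transcript (all higher in each), 0 with days 2 and 3 alone (1275 genes at an unadjusted p under 0.05) and 0 in the HM1-derived series alone (1955 genes). They numbered 1 with transcripts added up and 126 with DESeq2 (78 higher, 48 lower). Without each series in turn they ranged from 1 to 36 (1 to 23 higher, 0 to 13 lower), with 10 without line 19 and 36 without line 319. Without the series block, which drops the pairing of samples of 1 line, 7 were called (5 higher, 2 lower). List members called numbered 0 with days 2 and 3 alone, 0 in the HM1-derived series, 1 with transcripts added up and 24 with DESeq2, and ranged from 1 to 12 without each series. Called control changes ranged from 1143 to 7194 without each series (763 to 3617 higher, 380 to 3577 lower), and 997 were lower in the HM1-derived series alone. Lower calls in the knockout ranged from 1743 (without line 14) to 3287 (without line 319) without each series, with 1776 without HM1 replicate 2. The cause was not tested.

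Cyp26a1 was called under 12 of the 14 alternatives and lost its call with days 2 and 3 alone (adjusted p = 0.082) and in the HM1-derived series alone (0.095). In those settings Lhx1 had 0.16 and 0.10 and Cer1 0.059 and 0.11, and with transcripts added up they had 0.076 and 0.065. The sign was kept in all 14 for the 3 genes. Estimates were also counted for Nup133, Rarb, the called genes and the list members named for their small p. Of these, 993 kept their side of the threshold, 41 newly passed it and 15 no longer passed it. In that set 1 turned sign (Slc25a31, -0.04 in the HM1-derived series alone). Other named genes, such as the remaining retinoid genes, were not counted. Of those, Ncoa7 and Rxrb did not keep their sign, as given above. Of 336 list medians 15 moved beyond the spread and 10 turned sign, with a largest shift of 0.64. Depth limits genes with few counts, such as Cer1, Shh and Hoxb8 at their low day.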
